A study of Mus musculus with 136 samples.

Results

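Ribosomal protein genes are the genes whose symbols begin with Rpl (large ribosomal subunit) or Rps (small subunit). The symbols had to be followed by a number, or to be Rplp0, Rplp1, Rplp2 or Rpsa, and mitochondrial Mrpl and Mrps genes and the Rps6k kinases were left out. On chromosomes 1 to 19 of mm10 the rule found 87 protein-coding genes among 20661, on 18 chromosomes. They comprised 73 genes of the standard ribosome (43 large and 30 small subunit), 3 paralogues of restricted tissue use (Rpl3l, Rpl10l, Rpl39l), 3 other paralogues (Rpl22l1, Rpl7l1, Rps27l), 7 retrogenes or gene copies, and Rps19bp1, which encodes a binding partner of Rps19 and no ribosomal protein. A gene was given every peak or region that touched its body or the 2500 bp on either side, and this stretch is called its window.

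The lists came from chromatin immunoprecipitation and sequencing (ChIP-seq) of untreated male E14JU mouse embryonic stem cells (strain 129/Ola) in serum with leukaemia inhibitory factor (LIF). SUZ12, which the methyltransferase complex PRC2 needs for its activity, was listed for WT clone 410 and for MCM2-2A clones 439 and 442, in which the histone-binding domain of the replicative helicase subunit MCM2 is mutated. The histone marks used here were those of WT clone 410, with H3K4me3, H3K27me3 and H3K9me3 from an original and a rescue experiment (a second one that also held a clone with the mutation reverted) and H3K27ac from the original one. Each list combined its replicates, so every value is a single one per list, no spread between replicates exists, and no test was made. Genotype and clone cannot be told apart for SUZ12, because WT was represented by 1 clone.

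All 7 embryonic stem cell markers (Pou5f1, Sox2, Nanog, Esrrb, Zfp42, Tfcp2l1, Klf4) had H3K27ac in their windows. Of 5 fibroblast markers 1 had it (Thy1), and of 4 neural markers 3 did. SUZ12 in WT was found at 2 of the 7, 3 of the 5 and 4 of the 4. Lists ranged from 6298 SUZ12 peaks in WT to 128247 H3K27ac peaks, and the rescue lists of H3K27me3 and H3K9me3 covered 930 and 465 Mb against 363 and 199 Mb in the original experiment. Read depth behind the lists is unknown.

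Ribosomal proteins assemble with ribosomal RNA into the subunits that translate mRNA, and their genes are highly transcribed in growing cells. H3K4me3 marks the starts of genes that can be transcribed, and H3K27ac marks active promoters and enhancers. H3K27me3 is deposited by PRC2 (Polycomb repressive complex 2) at silent developmental genes, and H3K9me3 marks heterochromatin and repeats. Many ribosomal protein mRNAs begin with a run of pyrimidines, and their promoters often hold sites of ETS family factors.

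The promoters of 7 members are shown because they span the range of marks described below. Rps13 and Rpl4 were among those with the strongest H3K4me3 in both lists, Rpl19 had the strongest H3K27ac, Rpl18 carried the pyrimidine motif at its start, Rpl11 was among the weakest standard members by H3K4me3 in the original list, and Rpl10l and Rpl39l, paralogues used in testis, carried H3K9me3. Each stretch holds 100 bases before the annotated start and 30 from it onward, on the transcribed strand, from RefSeq on GRCm38.p6. Capitals mark the motifs CCGGAAG (ETS family) and GGGCGG (Sp1) on either strand, so also CTTCCGG and CCGCCC, and CTCTTTCC (pyrimidine run) on the transcribed strand.
Rps13, chr7:116334161-116334290, minus strand: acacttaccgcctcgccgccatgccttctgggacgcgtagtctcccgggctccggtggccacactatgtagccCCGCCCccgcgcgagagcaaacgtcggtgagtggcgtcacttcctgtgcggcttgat
Rpl4, chr9:64173287-64173416, plus strand: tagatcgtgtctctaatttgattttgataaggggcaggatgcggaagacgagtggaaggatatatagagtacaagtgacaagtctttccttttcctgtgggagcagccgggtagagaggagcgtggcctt
Rpl19, chr11:98026610-98026739, plus strand: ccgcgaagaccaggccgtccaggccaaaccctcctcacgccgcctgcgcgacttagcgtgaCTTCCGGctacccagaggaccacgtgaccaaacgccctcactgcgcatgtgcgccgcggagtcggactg
Rpl18, chr7:45717971-45718100, plus strand: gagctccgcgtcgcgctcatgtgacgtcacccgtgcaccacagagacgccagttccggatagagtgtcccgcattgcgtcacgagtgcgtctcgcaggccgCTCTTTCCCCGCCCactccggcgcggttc
Rpl11, chr4:136053364-136053493, minus strand: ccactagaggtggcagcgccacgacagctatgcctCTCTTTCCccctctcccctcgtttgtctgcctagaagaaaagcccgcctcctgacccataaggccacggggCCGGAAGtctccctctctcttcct
Rpl10l, chr12:66284372-66284501, minus strand: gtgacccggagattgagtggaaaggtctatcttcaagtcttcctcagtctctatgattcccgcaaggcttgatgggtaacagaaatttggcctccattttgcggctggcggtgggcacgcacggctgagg
Rpl39l, chr16:10170128-10170257, plus strand: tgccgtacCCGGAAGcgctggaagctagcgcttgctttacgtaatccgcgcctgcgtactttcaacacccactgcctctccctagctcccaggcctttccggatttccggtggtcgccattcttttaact

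Promoter sequence from 250 bases before to 50 after the start was matched for 66 members, 53 of them standard. The ETS motif CCGGAAG was found in 22 of the 53 (41.5%), against 12.3% of 16456 promoters of autosomal genes and 16.7% of 11672 promoters with H3K4me3 within 1000 bp of the start. The pyrimidine motif CTCTTTCC was found in 6 of 53 (11.3%), against 1.48% of all promoters and 1.43% of those with H3K4me3. It began 1 base after the annotated start in Rpl18 and at the start itself in Rpl28, but 65 bases before it in Rpl11 and 23, 29 and 33 bases after it in Rpl26, Rpl35a and Rpl6. The YY1 motif AAGATGGC, searched on both strands, was in 5 of 53 (9.43%) against 3.21% of all and 4.05% of those with H3K4me3. For the Sp1 motif GGGCGG the share was 58.5% against 47.3% of all promoters and 64.4% of those with H3K4me3, and for TATAAA on the transcribed strand it was 5.66% against 9.08% of all and 4.48% of those with H3K4me3. No standard promoter held different motifs that shared bases, and 9 of the 53 (17.0%) held none of the 5 motifs, among them Rpl4, against 39.6% of all promoters and 26.5% of those with H3K4me3. The 300 bases held a median of 22 CpG dinucleotides in standard members (8 to 35), against 14 over all promoters and 20 over those with H3K4me3. Rpl3l and Rpl32l, outside the standard set, held 2 and 3.

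H3K4me3 and H3K27ac were found at every standard ribosomal protein gene. In the original experiment 84 of 87 members (96.6%, Wilson 95% interval 90.3 to 98.8) had H3K4me3, against a background of 79.8% over all autosomal genes and 61.7% over the 8161 genes no longer than the longest standard member (11774 bp). In the rescue experiment 85 of 87 had it, against 81.1% and 63.4%. H3K27ac was found at 82 of 87 (94.3%, 87.2 to 97.5) against 68.1% of all genes and 48.2% of the short ones. Both marks of the original experiment were present at those 82 members, against 66.5% of all genes. Of the 84 members with H3K4me3 they were 82, whereas 83.3% of all genes with H3K4me3 had H3K27ac. Members without H3K27ac were the retrogenes or copies Rpl31-ps12, Rpl32l, Rpl34-ps1, Rpl37rt and Rps27rt, and Rpl31-ps12, Rpl34-ps1 and Rps27rt also lacked H3K4me3 in the original list.

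**Figure D1:**
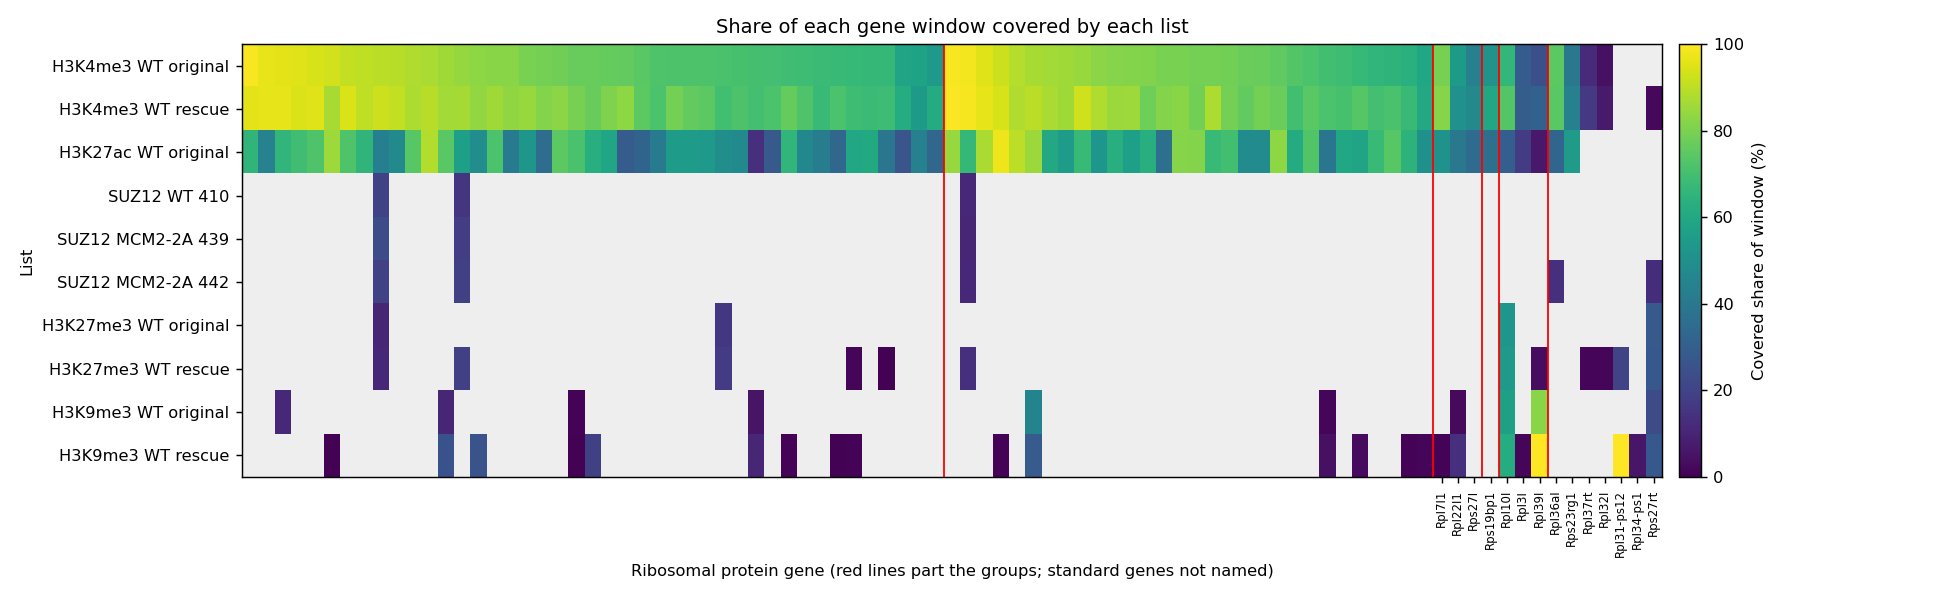
Share of each gene window (gene body plus 2500 bp on either side) covered by each of the 10 lists (rows), for the 87 ribosomal protein genes (columns), in percent as colour, with grey for no peak or region. Standard genes stand in the order of their original H3K4me3 share and are not named. From the left, red lines part large subunit, small subunit, other paralogues, Rps19bp1, tissue paralogues, and retrogenes or copies. The 73 standard genes are coloured in every H3K4me3 and H3K27ac row and mostly grey below.

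The strongest H3K4me3 peak in a member's window had a median fold enrichment over local background of 91.1 in the original list, against 78.7 over all genes with a peak. The members' median percentile among all genes with a peak was 65.1, and 70.6 in the rescue list, where the medians were 80.3 and 67.8. Of the standard members, 59 of 73 lay above the median of all genes in the original list, 66 in the rescue list and 55 in both. The median was 92.4 in large and 95.2 in small subunit genes.

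Rps27a, which encodes ubiquitin fused to a small subunit protein, had the highest H3K4me3 fold enrichment of the original list, 153, and 98.8 in the rescue list. Rpl3, a core protein near the peptidyl transferase centre, had 142 and 102. The small subunit gene Rps13 had 142 and 108, and Rpl4 had 138 and 114. Rpl17, Rpl23a, Rpl18, Rpl8 and Rpl36, all of the large subunit, followed with 119.9 to 127 in the original list. Their rescue values ran from 68.3 at Rpl23a to 104.5 at Rpl17, so the order of the members was not the same in the 2 lists. The highest member of the rescue list was Rpl12, a protein at the base of the stalk, with 128 there and 84.3 in the original list.

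At the lower end, the standard members Rpl21 and Rpl11 had 38.3 and 44.6 in the original list, and 45.6 and 73.5 in the rescue list. Rpl11 with Rpl5 and the 5S RNA binds Mdm2, the ubiquitin ligase of p53. Lower still were Rpl32l with 7.07 and 9.98, Rpl37rt with 22.8 and 30.1, and Rpl39l with 29.7 and 38.8, all outside the standard set. The strongest peak of Rpl37rt lay 1363 bp outside its body.

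The members' median strongest H3K27ac fold enrichment was 25.9 against 10.4 over all genes, a median percentile of 89.9. By strongest fold enrichment H3K27ac thus stood higher in its list than H3K4me3 did (65.1), but by covered base pairs the order turned, with median percentiles of 74.7 for H3K27ac and 77.0 for H3K4me3. All 73 standard members lay above the median of all genes, 61 of them above the percentile 75, and the lowest stood at percentile 65.3. Rpl19 was highest with 56.8, followed by Rpl32 with 51.0, Rpl3 with 50.1, Rpl4 with 49.1 and Rpl41, which encodes the shortest ribosomal protein, with 46.4. Rpl3 and Rpl4 were thus high by both marks, whereas Rpl19 and Rpl32 had H3K4me3 of only 82.8 and 72.5. The lowest standard member was Rplp0 with 14.1, above the median of all genes. Below it came the tissue paralogues Rpl39l with 5.61, Rpl10l with 7.30 and Rpl3l, the muscle paralogue of Rpl3, with 11.04.

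**Figure D2:**
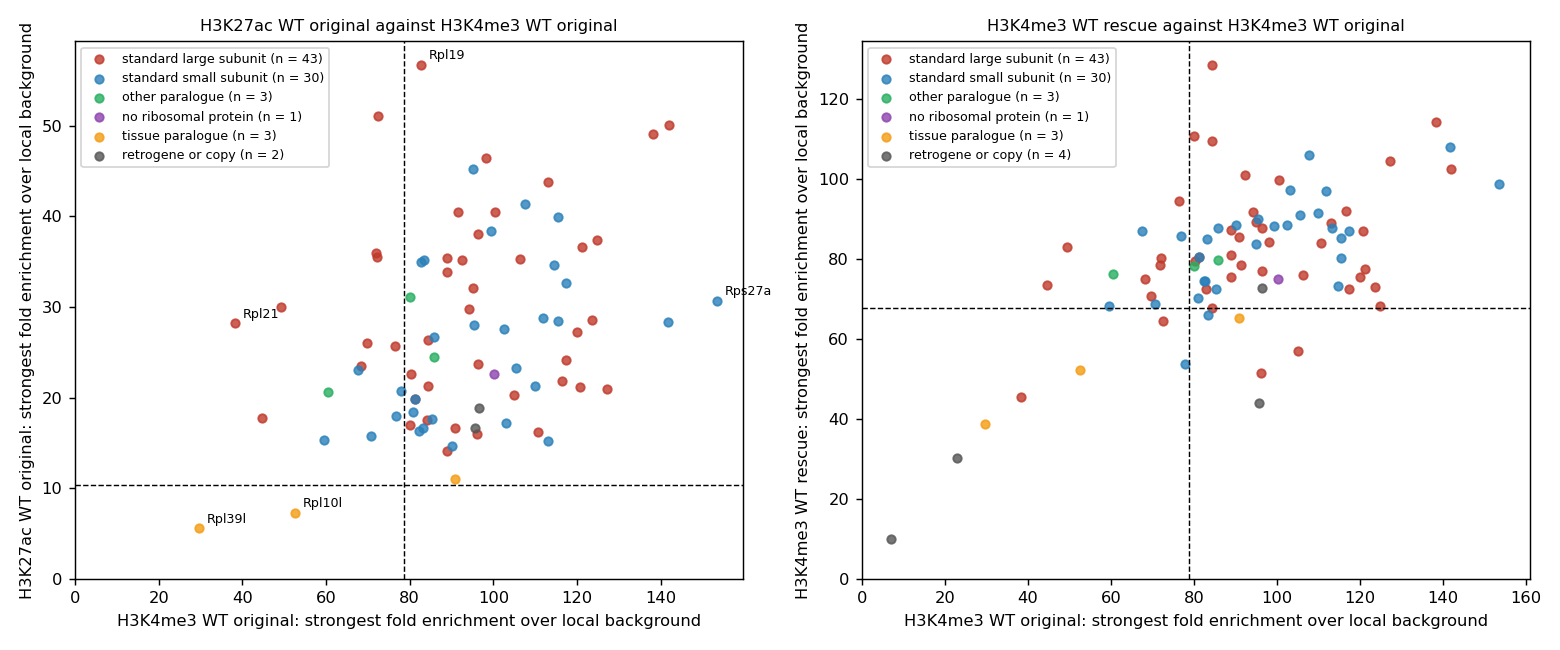
Strongest fold enrichment over local background in each member's window, with H3K27ac (left) and rescue H3K4me3 (right) on the vertical axis against original H3K4me3 on the horizontal axis; each point is a gene, coloured by group, and dashed lines are medians over all autosomal genes with a peak. Every standard gene lies above the H3K27ac line of 10.4, and Rpl10l and Rpl39l lie below it.

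The stalk of the large subunit, which recruits translation factors, is built from Rplp0, Rplp1 and Rplp2. Their H3K4me3 fold enrichments were 89.0, 111 and 113 in the original list and 81.0, 83.9 and 89.1 in the rescue list. H3K27ac was 14.1, 16.2 and 43.8. Rpsa, a small subunit protein also known as the laminin receptor, had 85.2 and 72.5 for H3K4me3 and 17.6 for H3K27ac. Rpl22l1, Rps27l and Rpl7l1, paralogues of Rpl22, Rps27 and Rpl7, had H3K4me3 of 60.4, 80.1 and 85.7 and H3K27ac of 20.6, 31.1 and 24.4, within the range of the standard genes. Rps19bp1 had 100.3 for H3K4me3 and 22.6 for H3K27ac, so by fold enrichment a gene encoding no ribosomal protein also lay within that range. H3K4me3 and H3K27ac covered 41.0% and 13.9% of its body, below the lowest standard values of 71.7% and 19.8%.

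H3K4me3 covered whole ribosomal protein genes rather than their starts alone. In the original list, 59 of 73 standard bodies (80.8%) were covered over their full length, against 5.59% of genes no longer than the longest of them and 2.21% of all genes. The lowest coverage was 71.7% of the body, at Rpl5. Body length differs between these sets (median 3183 bp in standard members, 17491 bp in all genes), and core histone genes, which are shorter still, were fully covered in 57.9% of cases. Measured free of gene length, the widest H3K4me3 peak in the window had a median width of 6418 bp in standard members, against 2386 bp over all genes with a peak and 2396 bp over short ones. The widest peak stood above the percentile 90 of all genes in 60 of 73 standard members, from 2468 bp at Rpl29 (percentile 52.5) to 10546 bp at Rps24, whose strongest fold enrichment of 59.5 was below the median of all genes. H3K27ac covered at least 50% of the body in 65 of 73 standard members, against 6.79% of short genes and 11.0% of those with H3K4me3. Core histone genes reached that coverage in 63.2% of cases. The lowest H3K27ac coverage of a standard body was 19.8%, at Rpl6.

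Position around the start was read for the 53 standard members with an annotated start, beside 3516 other genes that were no longer than the longest standard member and had H3K4me3 within 1000 bp of the start. At 2000 bp downstream H3K4me3 covered 53 of 53 members and 35.5% of the other genes, and at 3000 bp 98.1% and 24.1%. Upstream, H3K4me3 covered 98.1% and 73.5% at 500 bp, 67.9% and 45.6% at 1000 bp, and 26.4% and 20.7% at 2000 bp. H3K27ac covered 53 of 53 members 500 bp downstream and 43.8% of the others, and at 2000 bp 79.2% and 11.8%. At the start itself H3K27ac covered 41.5% of members, beside 83.0% at 500 bp upstream, and the other genes had the same dip (21.6% at the start, 42.6% upstream). The other genes were picked for H3K4me3 at the start, and the members were not.

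**Figure D3:**
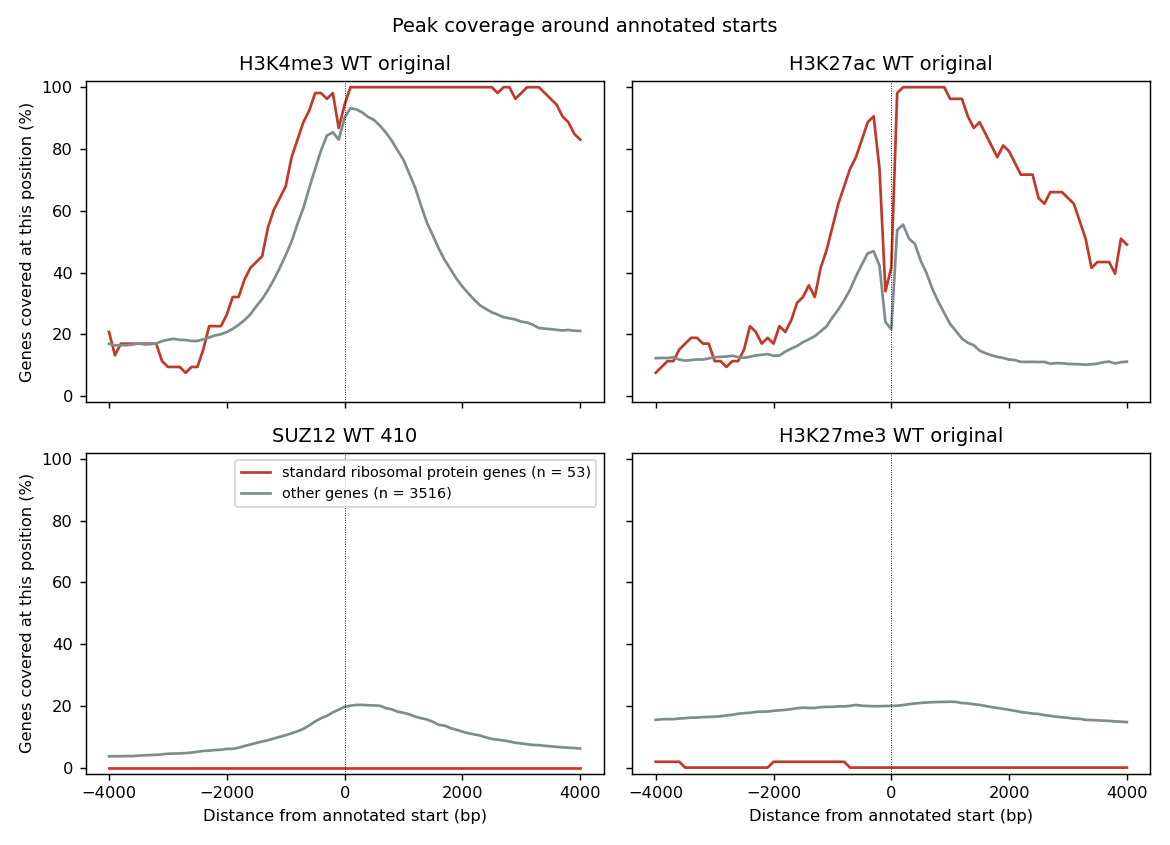
Percent of genes covered by a peak or region at each distance from the annotated start (horizontal axis, bp, transcription to the right) for 4 WT lists, in standard ribosomal protein genes (red, n = 53) and other genes with H3K4me3 at the start (grey, n = 3516). H3K4me3 and H3K27ac reach farther downstream in the red lines, both groups dip in H3K27ac at the start, and SUZ12 is at 0 in the red line throughout.

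SUZ12 was found at 3 members in WT clone 410 (3.45%, 1.18 to 9.65), 3 in MCM2-2A clone 439 and 5 in MCM2-2A clone 442. The background over all genes was 23.4%, 27.2% and 28.8%, and over genes with H3K4me3 29.2%, 33.9% and 35.9%. Among short genes it was 16.2%, 18.8% and 19.9%. The same 3 standard members, Rpl7 among them, were found in all 3 lists, against 22% of all genes, and 5 members were in at least 1 list, against 31%. No SUZ12 peak touched the body of any member in any list. Over all genes 22%, 25.4% and 26.9% of bodies were touched in clones 410, 439 and 442, and over short genes 14.5%, 16.8% and 17.7%. None of these 3 members has a start in the sequence table, so they are not among the 53 in the profile around the start.

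Rpl7 had the peak at chr1:16105240-16106799 in WT, 807 bp outside its body, with the gene Rdh10 (a retinol dehydrogenase) in the same window. Its fold enrichment was 19.8 in WT, 28.7 in clone 439 and 24.4 in clone 442. Over all genes with SUZ12 the median was 17.3, 16.6 and 14.4, so Rpl7 lay above it in each list. At Rpl7 the values of both mutant clones lay above WT, a difference with no replicate check.

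In clone 442 alone, against 2.88% of all genes with SUZ12 in that list only, there were 2 members. Rpl36al, an autosomal copy of Rpl36a, had a fold enrichment of 5.92 at chr12:69184299-69185164, 232 bp outside the body and beside Mgat2. Rps27rt had 13.2 at chr9:114977402-114980560, 1806 bp outside the body and beside Osbpl10. Clone 442 had the longest SUZ12 list, 7840 peaks against 7571 in clone 439 and 6298 in WT, and among the 6298 strongest peaks of clone 442 it held 4 members.

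H3K27me3 regions of the original experiment reached 4 members (4.6%, 1.8 to 11.2), against 41.1% of all genes, 29.8% of short ones and 43.8% of those with H3K4me3. They covered 52.5% of the window of Rpl10l, 28.0% of Rps27rt, 16.1% of Rpl26 and 10.9% of Rpl7. All 4 were also in the rescue list, where 12 members (13.8%) were reached against 60.3%, 51.5% and 60.8%. The rescue values were 53.8%, 27.4%, 17.5% and 11.2%. Of the members reached in the rescue list alone, Rpl31-ps12 had the largest share of the window covered, 20.6%, and Rpl39l had 3.13%. The regions touched the body of Rpl10l alone in the original list, against 35.7% of all bodies and 23.9% of short ones. No standard body was touched in either list, and in the rescue list 52.3% of all and 43.1% of short bodies were. H3K4me3 and H3K27me3 of the original experiment shared the window of 3 members, Rpl10l, Rpl26 and Rpl7. Over all genes the share was 35%, and it was not computed for short genes.

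H3K9me3 regions of the original experiment reached 10 members (11.5%, 6.36 to 19.9), against 34.9% of all genes and 37.7% of those with H3K4me3, but 13.9% of short genes, a share within the interval of the members. In the rescue list 23 members (26.4%, 18.3 to 36.6) were reached, against 59.7%, 61.7% and 35.6%, and 9 members were in both lists. The covered share of the window in the original list was 82.1% at Rpl39l, 56.6% at Rpl10l, 44.9% at Rps20 and 23.1% at Rps27rt. It was 11.4% at Rpl37 and 10.6% at Rpl23, 5.36% at Rpl6, 2.62% at Rpl22l1, 1.65% at Rps3a1 and 1.01% at Rpl3. Rpl37 was not in the rescue list. Of the standard members in the rescue list alone, Rpl24 and Rpl13 had the largest shares, 25.6% and 18.9%. The bodies of 3 members were touched in the original list, against 29.4% of all and 6.91% of short ones. Among standard members, only the body of Rps20 was touched in the original list, from its lower-numbered end (chr4:3823270-3833160), over 38.7% of its length. H3K4me3 of 109.9 and H3K27ac of 21.3 were found in the same window. In the rescue list H3K9me3 touched 7 of 73 standard bodies, beside 10344 of 20661 over all genes and 1678 of 8161 short ones. The covered part of these 7 bodies was small, from 0.20% at Rpl23 to 2.38% at Rps20. At Rpl13a, Rpl22, Rpl37a and Rpl34 the region was only 61 to 91 bp wide.

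Rpl10l and Rpl39l, autosomal copies of the X-linked Rpl10 and Rpl39, differed from the standard genes in carrying H3K9me3 over the gene. At Rpl10l (chr12:66283379-66284401) the H3K4me3 peak spanned 66281297 to 66285294, the H3K27me3 region 66282430 to 66285590 and the H3K9me3 region 66283490 to 66288380, so all 3 overlapped its body, and no other protein-coding gene lay in the window. H3K27ac peaks also covered 76.1% of the Rpl10l body. H3K9me3 and H3K27me3 shared the window of 2 members (Rpl10l and Rps27rt), against 19.1% of all genes, a share not computed for short genes. At Rpl39l (chr16:10170197-10174911) an H3K9me3 region from 10169440 to 10191620 ran past the gene, and H3K4me3 and H3K27ac lay at the lower-numbered end. No SUZ12 was found at either gene in any clone. The lists combine cells and alleles, so they do not show whether the marks occurred on the same chromatin.

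**Figure D4:**
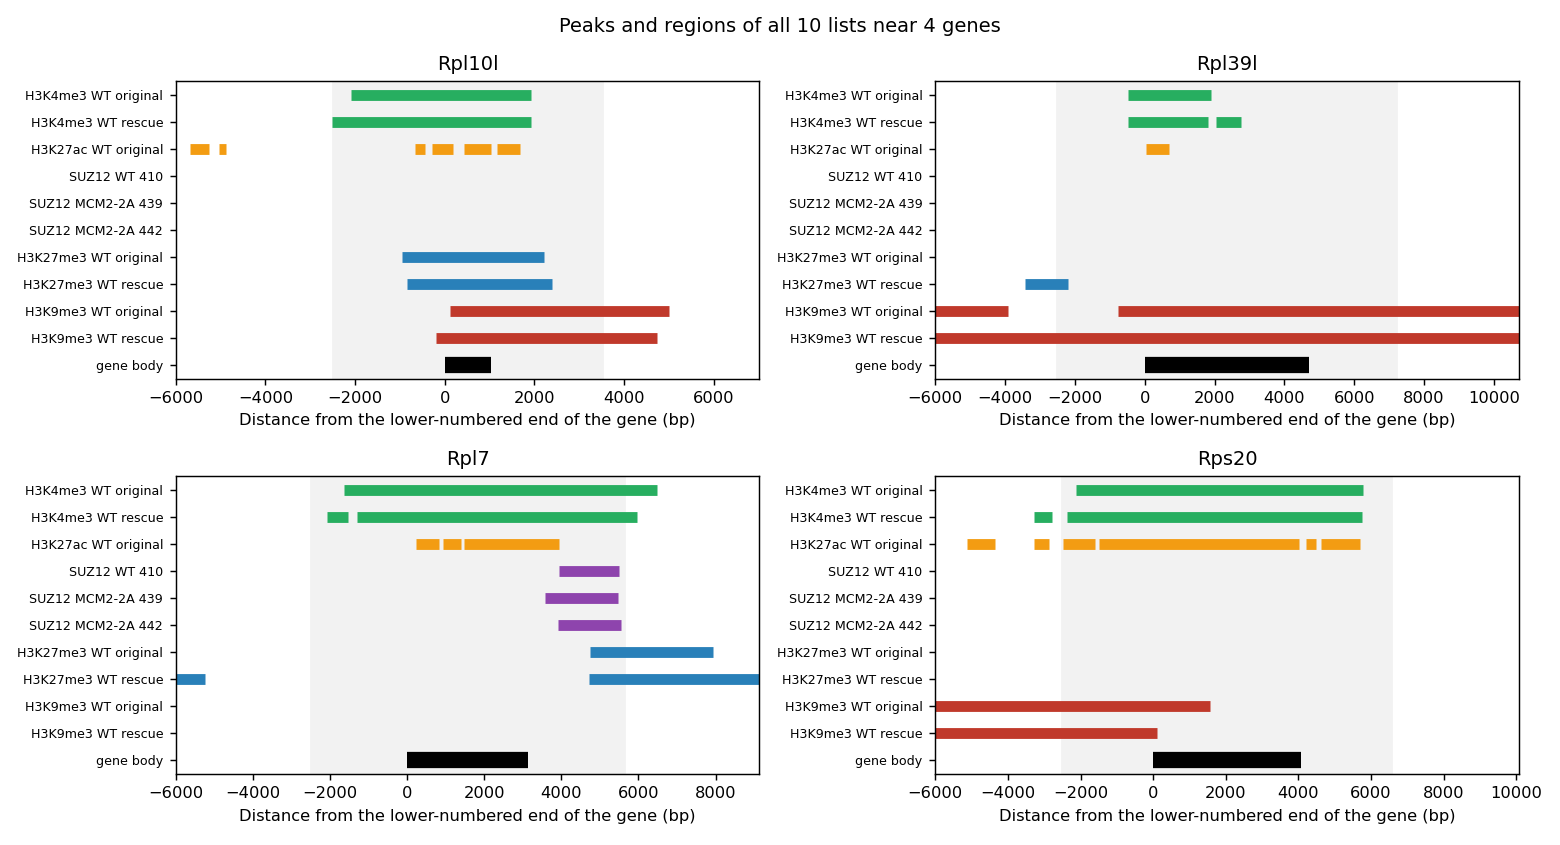
Peaks and regions of the 10 lists (coloured bars, rows) near Rpl10l, Rpl39l, Rpl7 and Rps20, with the gene body in black and the window shaded, against the distance from the lower-numbered end of the gene in bp; bars are trimmed at the panel edges. H3K9me3 lies over Rpl10l and Rpl39l, SUZ12 and H3K27me3 lie beside Rpl7, and H3K9me3 ends within Rps20.

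The retrogenes and copies differed among themselves. Rps23rg1 had H3K4me3 of 96.5 and H3K27ac of 18.8, and Rpl36al had 95.7 and 16.6. Camsap3 lay in the window of Rps23rg1, and Mgat2, with its annotated start, in that of Rpl36al. To which gene these peaks belong was not tested. Rpl31-ps12 had no peak in the original lists, and H3K9me3 covered its whole window (100%) in the rescue list. Rpl34-ps1 had a single region, H3K9me3 over 5.93% of the window in the rescue list. Rps27rt had H3K4me3 in the rescue list alone (72.0), 2376 bp outside its body. For these lists, the sources used here do not say how reads that fit several places were handled, so values at copies with near-identical sequence are uncertain. In all, 52 of 73 standard members were in none of the 7 lists of SUZ12, H3K27me3 and H3K9me3. Of the 87 members 55 were in none of them, against 17.1% of all genes. That share was not computed for short genes. Each of the 7 lists reached short genes less often than all genes, the original H3K9me3 list for example 13.9% against 34.9%.

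Neighbours can lend a peak to a window. Another protein-coding gene lay in the window of 47 members, and the windows of 2 members overlapped, so that these shared peaks. Of the standard members, 64 of 73 had a strongest original H3K4me3 peak that touched the body, and 62 of 73 had such an H3K27ac peak. In the others it lay up to 2495 and 1543 bp outside the body. At Rpl3l the strongest H3K4me3 peak (90.9) lay 443 bp outside the body, on the side of Msrb1.

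Other genes of protein synthesis were described beside the members. All 78 mitochondrial ribosomal protein genes had H3K4me3 (median fold enrichment 105) and H3K27ac, but the median H3K27ac was 14.7 against 25.9 in ribosomal protein genes, and H3K4me3 covered a median of 30.8% of the body. SUZ12 was in the window of 4 of them in WT and H3K27me3 of 13. Of 53 translation initiation and elongation factors, 51 had H3K4me3 (median 94.5), 48 had H3K27ac (17.5) and 6 had SUZ12 in WT. All 39 ribosome biogenesis genes had both marks, with medians of 104 and 16.8, and 2 had SUZ12. Core histone genes, which are also short and in high demand, had H3K4me3 at 54 of 57 (90.8), H3K27ac at 52 (33.0) and SUZ12 at 2. Original H3K27me3 and H3K9me3 reached 1.75% and 5.26% of core histone genes, against 4.6% and 11.5% of the members. The shares were 16.7% and 14.1% in mitochondrial genes, 24.5% and 17.0% in translation factors, and 17.9% and 10.3% in biogenesis genes. Low shares of these marks were thus not particular to ribosomal protein genes.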

How the data were processed

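Peak lists of 10 antibody and clone combinations were used of a series with 136 samples. Histone marks came from native chromatin cut with MNase and SUZ12 from crosslinked chromatin. In the submitters' processing notes stand, without roles, mm10 and the tools MACS2 2.1.0, Picard 2.20.7, BWA 0.7.15 and cutadapt 2.5. For SUZ12, H3K4me3 and H3K27ac the authors deposited for each peak a ratio, its fold enrichment, which served as strength here, a −log10 q-value, used as another measure of strength, and a score that was not used. For H3K27me3 and H3K9me3 regions the deposited values were 4 unnamed scores of unknown scale, the last of which ranked the regions. Replicates had been combined by the authors, and the lists give no read depth.

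Genes and promoters came from RefSeq tables (GRCm38.p6). A gene was called when a peak overlapped its body or 2500 bp on either side by at least 1 bp. Overlap code (Python 3.11.15, pandas 2.3.3, intervaltree 3.1.0) was tested on simulated data. Percentiles are among genes with a peak, and intervals are Wilson intervals at 95% that cover counting error only and treat genes as independent. No test was made, because no list gives replicates. For genes with several annotated starts the most upstream was used. Members, gene lists and naming rule were chosen with earlier results of these data known. The rule named the 10 highest and 5 lowest members by H3K4me3, 5 and 5 by H3K27ac, every member that lacked either mark, all with SUZ12, H3K27me3 or H3K9me3 in the original lists, and the paralogues, stalk genes and Rpsa. Further members named for width, coverage, rescue values or motifs (Rpl5, Rpl12, Rpl13, Rpl24, Rpl28, Rpl35a, Rpl29, Rps23rg1, Rps24), the set of retrogenes and copies and the background of short genes were chosen after values were seen. A few named genes are not reported here. Alternatives were another window, a stricter overlap, stronger peaks, the rescue lists and other sets of members.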

Additional observations from a re-analysis of the deposited data

How the results depend on the processing

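Of 71 alternatives over 11 results, 56 stayed within 1.5 times the reported share or median, and every alternative for H3K4me3 and H3K27ac did. The counts that moved were small ones. With the gene body alone, H3K27me3 reached 1 member, H3K9me3 reached 3, and SUZ12 reached 0 in clone 410, clone 439 and clone 442. Within 1000 bp of the annotated start (66 members with one) H3K27me3 and H3K9me3 reached 2 each, and SUZ12 reached 0, 0 and 1. The 3 standard members with SUZ12 have no start in the table, so this setting could not find them. The rescue lists gave 12 members for H3K27me3 and 23 for H3K9me3. In total those lists covered 930 and 465 Mb, against 363 and 199 Mb in the original ones. No stricter overlap was run on the rescue lists. The stronger part of each list gave 6 members for H3K9me3 and 3 for SUZ12 in clone 442. Standard genes alone, a set chosen after seeing the data, gave 2 members for H3K27me3. No paired analysis was possible because the lists combine their replicates and carry no replicate values, and for the same reason leaving out each replicate was not run. Read depth behind the lists is unknown, so a missing peak may be one that the list did not reach.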

Other observations

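Some ribosomal proteins are encoded by genes that the symbol rule or the chromosome limit left out. Fau, which encodes a ubiquitin-like protein fused to a small subunit protein, had H3K4me3 fold enrichments of 116 and 88.3 in the original and rescue lists and H3K27ac of 18.5. The 4 X-linked members had H3K4me3 of 62.3 (Rpl36a), 66.3 (Rpl39), 66.3 (Rps4x) and 87.8 (Rpl10) in the original list, where the median of all autosomal genes was 78.7. In the rescue list they had 58.3, 57.0, 49.2 and 67.7, all below the median of 67.8, and they had H3K27ac of 16.8, 17.1, 15.9 and 26.4. The cells are male, and an effect of X copy number on these values was not tested. No SUZ12 or H3K27me3 was found at these 5 genes, and H3K9me3 lay in the rescue list alone at Fau, over 1.69% of the window. The X-linked Rpl10 and Rpl39 thus had H3K27ac of 26.4 and 17.1 and no H3K9me3, beside 7.30 and 5.61 at their autosomal copies Rpl10l and Rpl39l, which had H3K9me3 in both experiments. These genes were looked at after the other values were seen.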
